A study of Mus musculus with 29 samples.

Results

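Cultures with guide RNAs against both Smad2 and Smad3 (sgSmad2/3) were compared with cultures whose labels name no guide (control). With 2 libraries of each, these are 4 of the 29 samples of the series. Of the 55421 genes in the deposited table, the 10223 that reached 5 CPM (reads per 1000000 counted reads) in at least 2 of these 4 libraries were described and tested. A total of 123 of them reached that level through the control libraries alone and 116 through the sgSmad2/3 libraries alone. All cells were splenic naive CD4 T cells of C57BL/6 mice, grown towards regulatory T cells (Treg) for 5 days in 15 ng/ml IL-2 plus 10 ng/ml human TGF-beta (hTGFb), so the controls received TGF-beta as well. Cultures with the Smad2 guide alone (sgSmad2) or the Smad3 guide alone (sgSmad3), 2 libraries each, shared the table and were otherwise grown in the same way. The labels name the guides and nothing else of the editing: they give no guide sequence, no edited share, no source of Cas9 and no guide in the controls. They also do not say whether libraries of a group came from separate mice or cultures, so the spread behind each p below may be technical. For the guide comparisons by limma that spread came from all 8 libraries of the table. It also leaned on the spread of other genes, with 12 prior against 4 residual degrees of freedom.

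TGF-beta acts through a pair of receptor kinases that phosphorylate Smad2 and Smad3. The phosphorylated proteins join Smad4, enter the nucleus and raise or lower transcription with other factors. In activated CD4 T cells this signal, together with IL-2, turns on Foxp3, the defining transcription factor of Treg cells, and holds down effector genes. Among the classical targets, Pmepa1, Skil, Smad7 and Ldlrad4 encode inhibitors that feed back on the pathway. The Id genes encode proteins that bind E-protein transcription factors and keep them off DNA, and TGF-beta is known to lower their expression in several cell types.

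With both guides, 56 of the 10223 genes tested (0.548%) passed an adjusted p of 0.05 in limma's moderated test with Benjamini-Hochberg adjustment. Of these, 25 genes (0.245%) were higher and 31 (0.303%) lower than in the controls. The largest rises were in Ccr2, Gzmb, Itgb3 and Id1, and the largest falls in Tnfsf11, Arfgef3 and Cd38. For all 56 genes both sgSmad2/3 libraries lay on 1 side of both controls. The same libraries gave the calls, so this separation adds no support, and its share over all genes was not counted. Of the 56 genes 51 were protein coding, as were 9296 of the 10223 tested. Changes are given as log2 differences on the scale log2(CPM + 1), which understates changes of low genes, and the median over all genes tested was 0.04. The order of the falls depended on the added 1. With 5 in its place Arfgef3 and Cd38 had changes of -1.34 and -1.34, and Fes and Actr3b had -1.45 and -1.45. Centring the libraries on their medians gave 26 higher and 50 lower genes, and edgeR's quasi-likelihood test on the reads worked out from the table gave 25 and 48. The count was 0 with the filter lowered to 1 CPM, 0 without a filter, 0 in a fit of the 4 libraries alone and 11 without limma's intensity trend. With so few libraries the count rested on each of them: it was 4 without sgSmad2/3 library 1 and 4 without sgSmad2/3 library 2, all 4 higher each time, and 13 and 10 without control library 1 or 2. Id2, Itgb3 and Myo6 passed whichever of the 8 libraries of the table was left out, and no gene that fell passed once an sgSmad2/3 library, 1 or 2, was left out.

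The table held 1294583 to 1602297 reads per library (1541289 and 1433268 for the controls, 1310993 and 1504588 for sgSmad2/3), and 3 reads, the level that a count of 0 allows, were worth 1.87 to 2.32 CPM. This limit covers counting error only. T cell genes were high in all 8 libraries, with Cd3e, a chain of the T cell receptor complex, between 309 and 402 CPM. Mitochondrial transcripts took 5.12% to 7.93% of the reads and the ribosomal-repeat gene Gm42418 took 4.81% to 7.60%. In such bulk libraries fewer cells of a type and less RNA per cell cannot be told apart.

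Neither guided gene passed the test. Smad2 was at 37 and 29 CPM in the controls and at 13 and 18 CPM with both guides. Its log2 change of -1.05 (SE 0.33) had an adjusted p of 0.22 by limma, and the sgSmad2 libraries had 12 and 24 CPM. Smad3 was at 30 and 34 CPM in the controls and at 41 and 37 CPM with both guides, a log2 change of 0.28 (SE 0.23, limma adjusted p = 0.69). Its level was 44 and 56 CPM with sgSmad2 and 26 and 25 CPM with sgSmad3. The kit sequences the 3' end of transcripts, and whether a cut elsewhere in the gene lowers these counts was not tested. The labels give no guide sequence and no edited share. The values therefore check neither the editing nor the labels, and they say nothing about Smad2 or Smad3 protein.

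**Figure D1:**
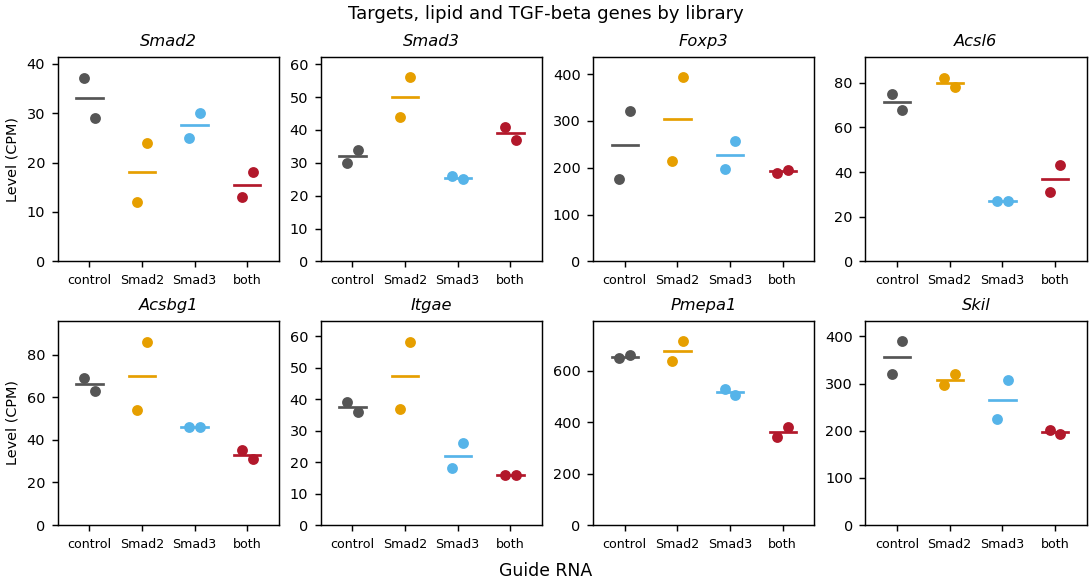
Level in CPM (vertical axes, from 0) of Smad2, Smad3, Foxp3, Acsl6, Acsbg1, Itgae, Pmepa1 and Skil in each library of the control, Smad2 guide, Smad3 guide and both-guide groups; points are libraries and lines are means of 2. Pmepa1 and Skil lie lower with both guides than in every control library, Smad3 does not, and the 2 Foxp3 controls span 177 to 320 CPM.

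Id1 and Id2 rose with both guides. Id2 was at 185 and 204 CPM in the controls and at 619 and 548 CPM with both guides (194.5 ± 13.4 and 583.5 ± 50.2, SD, n = 2 each). With a single guide it stayed between 196 and 220 CPM in the 4 libraries, so that only the sgSmad2/3 libraries stood apart from the rest. The log2 change from control was 1.58 (SE 0.16, limma adjusted p = 0.00011). Id2 was also higher with both guides than with sgSmad2 (log2 1.49, adjusted p = 0.00052) and than with sgSmad3 (log2 1.42, adjusted p = 0.0010). Id1, low in these cells, was at 3 and 7 CPM in the controls, 11 and 11 with sgSmad2, 12 and 12 with sgSmad3, and 32 and 37 with both, and its log2 change from control was 2.65 (SE 0.37, adjusted p = 0.0023). Id3 was at 128 and 127 CPM in the controls and 232 and 223 with both guides. The Id3 change of 0.83 (SE 0.19) missed the threshold (adjusted p = 0.068).

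Gzmb encodes granzyme B, a serine protease of cytotoxic granules. Its level was 14 and 10 CPM in the controls, 25 and 20 with sgSmad2, 19 and 11 with sgSmad3 and 95 and 76 with both guides. The 2 libraries with both guides thus stood apart from the 6 others, none of which was above 25 CPM. The log2 change was 2.74 from control (SE 0.30, limma adjusted p = 0.00027), 1.88 from sgSmad2 (adjusted p = 0.021) and 2.47 from sgSmad3 (adjusted p = 0.0021). Id2 and Gzmb were the 2 genes that passed against each of the 3 other groups. Other genes of the cytotoxic list did not follow Gzmb: of 11 members tested 1 was higher and 0 lower, with a median of 0.08, and Prf1, which encodes perforin, had a log2 change of -0.61 (adjusted p = 0.70). Among all genes tested 0.245% were higher and 0.303% lower.

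The starts of genes that moved are shown as a window from 250 bases before to 50 bases after the transcript start (RefSeq, GRCm38.p6), for Id2 and Gzmb, which both guides set apart, for Nt5e, which fell, and for Acsl6. Id2 (chr12:25096043-25096342, minus strand), Gzmb (chr14:56262285-56262584, minus strand), Nt5e (chr9:88327359-88327658, plus strand) and the first listed of 3 Acsl6 starts (chr11:54303574-54303873, plus strand) are printed 5' to 3' on the gene's strand. Capitals mark matches, on either strand, to CAGAC, the core of the Smad binding element, and to GGCGC, a GC-rich motif that Smad proteins also bind.
Id2: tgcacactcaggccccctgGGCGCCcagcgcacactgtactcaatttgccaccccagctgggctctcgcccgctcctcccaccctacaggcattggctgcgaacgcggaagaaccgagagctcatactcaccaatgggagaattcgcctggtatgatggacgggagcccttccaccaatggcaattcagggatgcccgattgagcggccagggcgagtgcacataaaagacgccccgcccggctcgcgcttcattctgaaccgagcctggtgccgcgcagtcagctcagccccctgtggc
Gzmb: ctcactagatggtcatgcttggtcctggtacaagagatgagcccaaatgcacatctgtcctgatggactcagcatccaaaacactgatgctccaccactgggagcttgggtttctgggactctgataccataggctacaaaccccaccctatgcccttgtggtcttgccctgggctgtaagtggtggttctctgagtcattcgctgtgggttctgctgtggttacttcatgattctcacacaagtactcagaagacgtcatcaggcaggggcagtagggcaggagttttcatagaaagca
Nt5e: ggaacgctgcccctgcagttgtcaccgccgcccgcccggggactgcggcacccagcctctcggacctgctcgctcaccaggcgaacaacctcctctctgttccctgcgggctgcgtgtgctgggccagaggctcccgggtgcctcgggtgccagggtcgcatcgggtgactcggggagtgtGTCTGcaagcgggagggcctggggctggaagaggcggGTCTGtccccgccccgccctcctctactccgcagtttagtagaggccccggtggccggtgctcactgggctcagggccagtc
Acsl6: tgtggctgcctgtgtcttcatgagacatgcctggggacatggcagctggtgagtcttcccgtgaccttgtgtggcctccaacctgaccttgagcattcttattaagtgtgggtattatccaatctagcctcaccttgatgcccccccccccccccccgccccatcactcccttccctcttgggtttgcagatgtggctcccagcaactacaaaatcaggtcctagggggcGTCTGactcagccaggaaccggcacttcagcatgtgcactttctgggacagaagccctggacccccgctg
The Id2 window held GGCGC on both strands in 1 overlapping stretch and no CAGAC, the Nt5e window held 2 CAGAC matches, the Acsl6 window 1, and the Gzmb window held neither. Of all 32851 such windows in the table, 49.6% held CAGAC and 36.9% held GGCGC. The 30 windows found for 20 of the 31 genes that fell held them in 36.7% and 43.3%, and the 14 windows of 14 of the 25 genes that rose in 42.9% and 35.7%. A match describes these letters and is not evidence of binding.

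**Figure D2:**
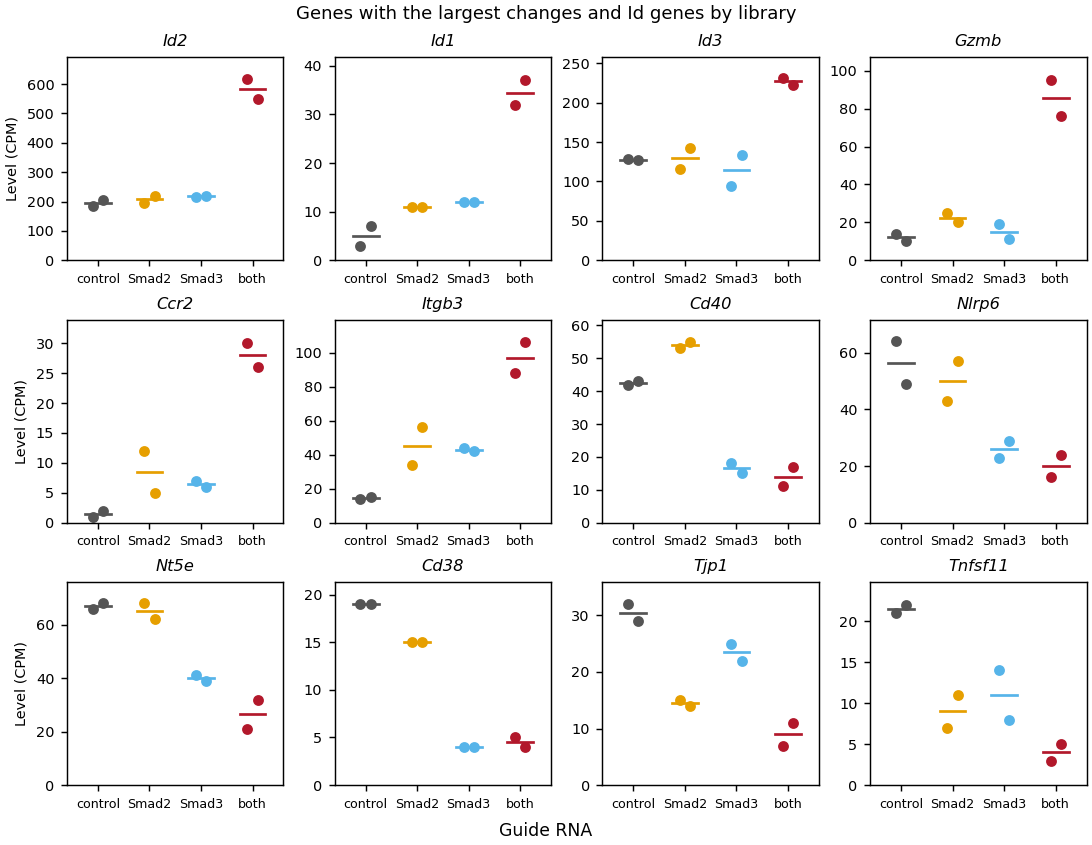
Level in CPM (vertical axes, from 0) of 12 genes in each library of the control, Smad2 guide, Smad3 guide and both-guide groups; points are libraries and lines are means of 2. Id2 and Gzmb are high in the both-guide libraries alone, Itgb3 is intermediate with either single guide, and Cd40, Nlrp6 and Cd38 are about as low with the Smad3 guide as with both.

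Itgb3, Itga7 and Ccr2 were among the largest rises. Itgb3, the integrin beta-3 chain, was at 14 and 15 CPM in the controls, 34 and 56 with sgSmad2, 44 and 42 with sgSmad3 and 88 and 106 with both guides, a log2 change of 2.65 (SE 0.25, limma adjusted p = 0.00011). The 4 groups thus formed 3 separate levels, with each single guide in between. Itga7, a laminin-binding integrin chain, went from 16 and 17 CPM to 45 and 57 CPM (log2 1.56, adjusted p = 0.0063). Ccr2, a chemokine receptor, was at 1 and 2 CPM in the controls and at 30 and 26 CPM with both guides. Its control values lie at or under the level of 3 reads, so the fitted change of 3.56 (SE 0.46, adjusted p = 0.0011) depends on the added constant and was 2.35 with 5 and 3.88 with 0.5 in place of 1. Among 22 tested genes of integrins and adhesion 1 was higher (Itgb3) and 1 lower (Cd96, a receptor of the nectin family's ligands, from 102 and 81 to 50 and 46 CPM, log2 -0.91). The median of that list was 0.17, and of 9 chemokine receptors tested only Ccr2 passed, with a median of -0.10. Among all genes tested 0.245% were higher and 0.303% lower.

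Cd28, the main costimulatory receptor, rose from 43 and 56 to 107 and 132 CPM (log2 1.26, SE 0.20, limma adjusted p = 0.0072). It was the 1 gene that passed among 25 tested of the T cell receptor complex list, whose median was 0.13. Trat1, an adaptor linked to the T cell receptor, went from 25 and 24 to 63 and 60 CPM (log2 1.29). In all, 3 genes of the naive and quiescence list rose and 0 of its 27 tested members fell, with a median of 0.06: Dapl1, a gene of naive T cells, from 32 and 29 to 79 and 99 CPM (log2 1.51), Ms4a4b, a T cell membrane protein, from 170 and 165 to 368 and 460 CPM (log2 1.29), and its relative Ms4a6b from 220 and 216 to 418 and 420 CPM (log2 0.94). Against these list counts, 0.245% of all genes tested were called higher and 0.303% lower, and the all-gene median was 0.04. The naive T cell factors Tcf7 and Lef1 had log2 changes of 0.58 and 0.43 (adjusted p = 0.44 and 0.37). Ms4a4b and Ms4a6b belong to a family of similar neighbouring genes, so reads may have been split between copies.

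Myo6, which encodes a myosin motor that walks towards the minus end of actin, was at 69 and 70 CPM in the controls, 159 and 183 with sgSmad2, 180 and 171 with sgSmad3 and 204 and 283 with both guides. All 6 guided libraries were above 150 CPM and both controls at 70 CPM or below. Myo6 was the 1 gene called with sgSmad2 alone (log2 1.28, limma adjusted p = 0.028), and its change was 1.32 with sgSmad3 (adjusted p = 0.019) and 1.77 with both (adjusted p = 0.00013). The remaining rises taken by the rule for the largest changes were Podnl1 (log2 1.75), a secreted leucine-rich protein, Snora41 (1.75), a small nucleolar RNA, Map6 (1.40), a microtubule stabiliser, Col1a1 (2.31), a collagen chain, and Hba-a1 (2.21), an alpha-globin. Col1a1 was uneven within the group, at 37 and 17 CPM with both guides against 3 and 6 CPM.

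Tnfsf11, Cd38, Cd40, Nt5e and Cd101, which fell, encode proteins of the cell surface. Tnfsf11, the cytokine RANKL, fell from 21 and 22 to 3 and 5 CPM (log2 -2.20, SE 0.40, limma adjusted p = 0.018). Cd38, an NAD-consuming enzyme on the cell surface, was at 19 and 19 CPM in the controls, 15 and 15 with sgSmad2, 4 and 4 with sgSmad3 and 5 and 4 with both guides (log2 -1.87, adjusted p = 0.033). Its sgSmad3 and sgSmad2/3 libraries were on 1 level and its sgSmad2 libraries near the controls. Cd40, a costimulatory receptor better known from antigen-presenting cells, was at 42 and 43 CPM in the controls, 53 and 55 with sgSmad2, 18 and 15 with sgSmad3 and 11 and 17 with both guides (log2 -1.56, SE 0.26, adjusted p = 0.010). Its sgSmad2 libraries were above the controls, unlike those of Cd38. Nt5e, the ectoenzyme CD73 that makes adenosine on Treg cells, was at 66 and 68 CPM in the controls, 68 and 62 with sgSmad2, 41 and 39 with sgSmad3 and 21 and 32 with both guides (log2 -1.33, SE 0.23, adjusted p = 0.011). Here the both-guide libraries were below those of sgSmad3, although that difference did not pass (log2 -0.61, adjusted p = 0.98). Cd101, an inhibitory surface protein, fell from 32 and 40 to 14 and 15 CPM (log2 -1.25).

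Diaph2, an actin-nucleating formin, had the smallest adjusted p of the 31 genes (limma, 0.00096): it was at 239 and 235 CPM in the controls and 95 and 98 with both guides (log2 -1.29, SE 0.16). Ubash3b, a phosphatase that restrains T cell receptor signalling, went from 147 and 121 to 40 and 66 CPM (log2 -1.36), Fes, a tyrosine kinase, from 38 and 62 to 11 and 19 CPM (log2 -1.68), and Nlrp6, a cytosolic sensor, from 64 and 49 to 16 and 24 CPM (log2 -1.47). Tjp1, the junction scaffold ZO-1, differed from these in its single-guide levels. It was at 32 and 29 CPM in the controls, 15 and 14 with sgSmad2, 25 and 22 with sgSmad3 and 7 and 11 with both guides (log2 -1.68, adjusted p = 0.015), so the sgSmad2 libraries were the lower single-guide pair. Tead1, a transcription factor of the Hippo pathway, fell by 1.20 and Fchsd2, a membrane-bending protein, by 1.18 on the log2 scale. Actr3b, an actin-related protein, fell by 1.71, Cpd, a carboxypeptidase, by 1.22, and Arfgef3, a protein of the ARF exchange factor family, by 1.97, the last from 17 and 16 to 3 and 4 CPM.

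Among the inhibitors and direct targets of the pathway, Pmepa1 and Skil fell. Pmepa1, which sequesters receptor-activated Smads, was at 647 and 662 CPM in the controls, 637 and 716 with sgSmad2, 529 and 504 with sgSmad3 and 343 and 381 with both guides (log2 -0.85, SE 0.15, limma adjusted p = 0.013). It was lower with both guides than with sgSmad2 (log2 -0.90, adjusted p = 0.022), and the step from sgSmad3 was -0.51 (adjusted p = 0.71). Skil, a Smad co-repressor, went from 320 and 391 to 201 and 192 CPM (log2 -0.85, SE 0.18, adjusted p = 0.040). The list of feedback genes and Smad targets had 31 names, of which 23 passed the filter on low values: 2 were higher (Id1 and Id2), 2 lower (Pmepa1 and Skil), and the median was -0.35. Among all genes tested 0.245% were higher and 0.303% lower, and the median was 0.04. Of the 23 members 8 had log2 changes above 0, against 55.4% of the 9284 genes outside the 2 Treg against Th0 sets given below. Those sets are unlike this list, which had 12 of 21 tested members higher in Treg and 2 lower, so the 9284 genes are an unequal baseline. The share above 0 over all genes tested was not counted. Members that did not pass include Itgae (-1.18, adjusted p = 0.077), Ldlrad4 (-1.11, 0.12) and Smad7 (-0.40, 0.48). Itgae, the integrin CD103 of tissue-resident cells, was at 39 and 36 CPM in the controls and 16 and 16 with both guides. Of 21 tested ligands, receptors and Smads none passed (median -0.16; 4 members had an unadjusted p under 0.05, which 10.9% of all genes tested had), and edgeR called none either. Tgfbr1 and Tgfbr2, the receptor kinases, had log2 changes of -0.12 and -0.24, Smad4, the shared partner, 0.22, and Tgfb1, the ligand, 0.22.

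Foxp3 did not pass. It was at 177 and 320 CPM in the controls and 189 and 195 with both guides, so the groups overlapped. Its log2 change was -0.31 (SE 0.27, 95% interval -0.88 to 0.26, limma adjusted p = 0.71), and it was 0.12 without control library 2. Of 28 tested genes of the Treg core list 0 were higher and 1 lower (Nt5e), and the median was -0.09. At an unadjusted p under 0.05, which 10.9% of all genes tested had, 6 of the 28 were higher and 3 lower. Il2ra, the IL-2 receptor chain CD25, had a log2 change of 0.10, Ctla4, an inhibitory receptor, -0.52, and Ikzf2, the factor Helios, -0.09, with adjusted p of 0.86, 0.46 and 0.90. Of 12 tested tissue Treg genes Id2 and Gzmb were higher and 1 was lower, against 0.245% and 0.303% of all genes tested. Their median was -0.19, and at an unadjusted p under 0.05 3 were higher and 4 lower. The gene that fell was Maf, a transcription factor, from 101 and 130 to 44 and 58 CPM (log2 -1.17, adjusted p = 0.037).

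The series is about lipid metabolism of Treg cells, and Acsbg1 and Acsl6, which activate long-chain fatty acids by joining them to coenzyme A, had the lowest log2 changes of 11 tested acyl-CoA synthetases. Acsl6 (chr11:54303805-54364756, GRCm38.p6) was at 75 and 68 CPM in the controls, 82 and 78 with sgSmad2, 27 and 27 with sgSmad3 and 31 and 43 with both guides. The 4 libraries with a Smad3 guide were all below 50 CPM and the 4 without it all above 60 CPM. The means were 71.5 ± 4.95 and 37.0 ± 8.49 CPM (SD, n = 2) for control and both guides, and the log2 change of -0.95 (SE 0.22, limma adjusted p = 0.068) missed the threshold. It passed with quantile scaling (-0.999, adjusted p = 0.048), median centring (-0.99, 0.039) and edgeR (-0.98, 0.042). By limma it did not pass without the trend (adjusted p = 0.21), in the 4 libraries alone (0.28) or with voom weights (0.076). Nor did it with the filter at 1 CPM (0.13) or without a filter (0.29). With a library left out its log2 change lay between -1.18 and -0.72. With sgSmad3 alone the change was -1.37 (adjusted p = 0.028), and both guides against sgSmad3 gave 0.42 (95% interval -0.04 to 0.88, adjusted p = 0.996). Acsbg1 (chr9:54604886-54661885) was at 69 and 63 CPM in the controls, 54 and 86 with sgSmad2, 46 and 46 with sgSmad3 and 35 and 31 with both guides. Its both-guide libraries were the lowest of the 8, and its log2 change of -0.98 (SE 0.23, adjusted p = 0.077) missed the threshold as well. It passed with median centring (-1.02, adjusted p = 0.040) and without sgSmad2 library 1 or 2 (adjusted p = 0.042 and 0.046), and not by edgeR (-1.03, adjusted p = 0.061). By limma Acsbg1 did not pass without the trend (adjusted p = 0.26) or in the 4 libraries alone (0.26). With the settings used throughout, no acyl-CoA synthetase passed, and the median of the list was -0.07. At an unadjusted p under 0.05, which 10.9% of all genes tested had, there were 3 members.

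In the other metabolic lists 1 gene passed: Mboat1, an acyltransferase of phospholipid remodelling, went from 35 and 30 to 66 and 71 CPM (log2 1.06, limma adjusted p = 0.037), out of 34 tested genes of glycerolipid synthesis (median 0.03). Among all genes tested 0.245% were higher. None passed among 20 genes of fatty acid synthesis (median 0.13), 26 of cholesterol synthesis (0.09), 28 of fatty acid oxidation (-0.04), 75 of oxidative phosphorylation (0.09), 24 of glycolysis (0.18), 7 of the mitochondrial genome (-0.27) and 44 of the Myc network and ribosome biogenesis (0.15), by the same test. At an unadjusted p under 0.05, which 10.9% of all genes tested had, these lists had 3, 0, 2, 3, 4, 0 and 5 members. Of 40 cell cycle genes none passed, 35 had log2 changes above 0 and the median was 0.29, with 14 at an unadjusted p under 0.05. For comparison, 55.4% of the 9284 genes outside the 2 Treg against Th0 sets given below had changes above 0. Of 24 immediate early genes none passed and the median was -0.34, with 9 at an unadjusted p under 0.05: Egr1, an early response factor, was at 49 and 133 CPM in the controls and 21 and 37 CPM with both guides (log2 -1.50, adjusted p = 0.077). The lists of interferon response, p53 targets, integrated stress response, IL-2 receptor signalling and effector T helper genes had no member past the threshold, with medians of 0.06, 0.08, 0.19, 0.01 and 0.32 and with 8, 3, 3, 3 and 2 members at an unadjusted p under 0.05. By edgeR, too, 0 members passed in each of the lists without a call here, except for 1 immediate early gene.

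The single guides share the control libraries with the comparison above, so their values are given side by side. With sgSmad2 alone 1 gene (0.00978%) passed against the controls, and with sgSmad3 alone 10 genes (0.0978%), 6 higher (0.0587%) and 4 lower (0.0391%). These counts moved with the libraries, to 0 for sgSmad2 without any 1 of the 8 and to between 0 and 14 for sgSmad3, where 0 passed without either control, either sgSmad2/3 library or sgSmad3 library 1. For the 31 genes that fell with both guides the median log2 change was -1.20 with both, -0.24 with sgSmad2 and -0.87 with sgSmad3. For the 25 genes that rose it was 1.46, 0.86 and 0.80. Both sets were picked by their change with both guides, so a larger median with both was partly fixed by that choice. Tested directly against sgSmad2, sgSmad2/3 had 11 genes past the threshold (0.108%): 3 were higher (0.0293%; Gzmb, Id2 and Hba-a1) and 8 lower (0.0783%), among them Cd40 (log2 -1.90, limma adjusted p = 0.011), Nt5e (-1.29), Ubash3b (-1.31), Fchsd2 (-1.19), Diaph2 (-1.06) and Pmepa1 (-0.90). Without either sgSmad2/3 library this count was 0, and without any other library 1 to 7. Against sgSmad3, 2 genes (0.0196%) passed, Id2 and Gzmb, both higher. That count was 0 without either sgSmad2/3 library and 7 without sgSmad3 library 2. No gene departed from the sum of both single-guide changes by limma or by edgeR, with 282 (2.76%) and 302 genes at an unadjusted p under 0.05. The departure of Id2 was 1.32 (SE 0.22, adjusted p = 0.18) and that of Gzmb 1.61 (SE 0.43, adjusted p = 1).

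**Figure D3:**
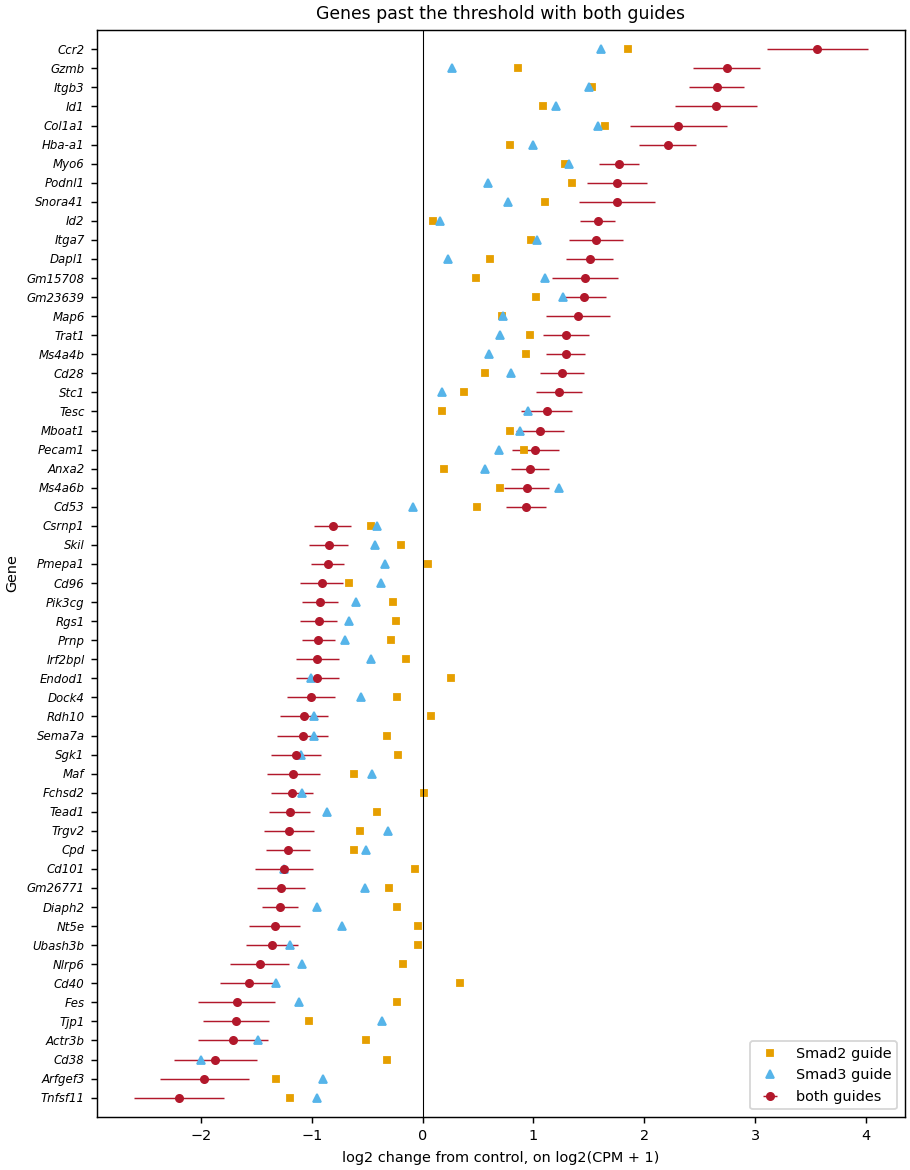
Log2 change from control on log2(CPM + 1) (horizontal axis) of the 56 genes that passed with both guides (vertical axis); circles with bars are both guides with the standard error, squares the Smad2 guide and triangles the Smad3 guide. All 3 share the same 2 control libraries, and the genes were picked by their change with both guides. Both guides lie farther from 0 than either single guide for Id2 and Gzmb but not for Cd38 or Ms4a6b.

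How these genes differ between Treg cultures with TGF-beta and Th0 cultures was read from other libraries, in a separate table. It held 3 libraries of Treg cultures with no guide in their labels, with the cytokines and time given above. It also held 3 of Th0 cultures, which had the same IL-2 and time and no TGF-beta in their labels. Whether these cultures differed in anything else was not tested. In that comparison 835 of 9937 genes (8.4%) passed by limma, 451 higher in Treg (4.54%) and 384 lower (3.86%). Of the 31 genes that fell with both Smad guides 29 were tested there: 27 of 29 (93.1%) were higher in Treg than in Th0 and 0 were lower, with a median log2 difference of 2.38. Of the 25 that rose 22 were tested: 17 of 22 (77.3%) were lower in Treg and 0 were higher, with a median of -1.32. Over all 9627 genes tested in both tables, 4.65% were higher and 3.63% lower. Pmepa1 was at 515, 630 and 585 CPM in Treg and 47.7, 45.5 and 90.6 CPM in Th0, and Cd40 at 29.1, 36.7 and 50.9 against 0, 1.11 and 1.22 CPM. Gzmb was at 22.6, 16.8 and 8.82 CPM in Treg and 611, 434 and 453 CPM in Th0, and Id2 at 339, 275 and 235 against 933, 833 and 621 CPM. The both-guide level of Gzmb, 95 and 76 CPM, lies between these groups, although levels set across the 2 tables come from separate experiments. Acsl6 and Acsbg1 were higher in Treg than in Th0, by log2 2.07 and 2.11, and Foxp3 by 3.99.

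The same was read from the other side. Of 215 genes at least 2-fold higher in Treg than in Th0 and past the test there, 212 were tested with the guides: 198 (93.4%) had a log2 change below 0 with both guides, 26 were called lower and 0 higher, and the median was -0.66. With sgSmad2 alone the median of these genes was -0.17 and with sgSmad3 alone -0.34. Of 166 genes at least 2-fold lower in Treg 131 were tested with the guides: 106 (80.9%) had a change above 0, 14 were called higher and 0 lower, and the median was 0.55, with 0.25 for sgSmad2 and 0.21 for sgSmad3. Not every list lower in Treg moved with the guides. Of 55 interferon response genes tested in Treg against Th0, 45 were lower in Treg, with a median of -1.19. With both guides 0 of 42 tested members of that list were called, and their median was 0.06. For the integrated stress response 15 of 29 were lower in Treg (median -0.63). With both guides 0 of its 28 tested members were called (median 0.19). The 9284 genes in neither set had a median of 0.04 with both guides. Of these, 44.3% were below 0 and 55.4% above 0, and 3 were called lower and 8 higher. Across the 9627 genes, which are not independent replicates, Pearson's r between both changes was -0.38 and Spearman's rho -0.24.

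**Figure D4:**
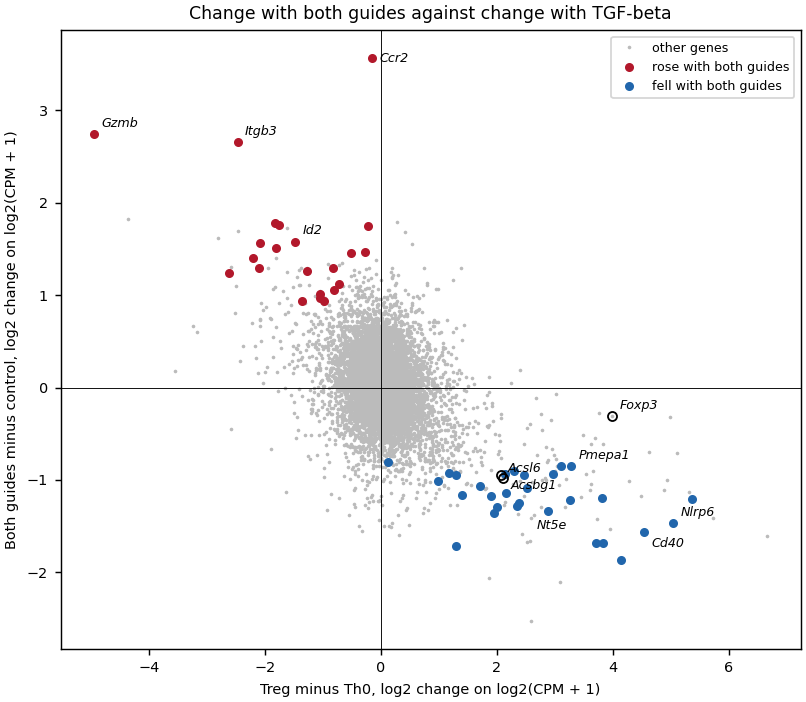
Log2 change with both guides against control (vertical axis) by log2 difference of Treg against Th0 (horizontal axis), both on log2(CPM + 1), for 9627 genes tested in both tables; red points rose and blue points fell with both guides, and rings mark Acsl6, Acsbg1 and Foxp3. No blue point was called lower in Treg and no red point higher, and Foxp3 lies near 0 on the vertical axis at 3.99 on the horizontal one.

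Markers of other cells were uneven across the libraries. The summed level of 11 red cell and platelet markers found in the table was 24 and 15 CPM in the controls, 27 and 27 with sgSmad2, 90 and 35 with sgSmad3 and 73 and 149 with both guides, with Alas2, Ppbp and Gp9 at 0 in all 8 libraries. Hba-a1, called higher with both guides, is one of them, and it was at 12 and 12, 22 and 21, 25 and 25, and 50 and 70 CPM in the 4 groups. Hbb-bs, a beta-globin, was at 5 and 1, 3 and 3, 42 and 6, and 14 and 47 CPM. The sum of 21 myeloid markers was 38 and 59 CPM in the controls and 98 and 132 CPM with both guides, with Itgam, Itgax and Cd14 at 0 in all 8 libraries. S100a9, a neutrophil gene, was at 1 and 0 CPM in the controls, 25 and 2 with sgSmad3 and 10 and 27 with both guides (limma adjusted p = 0.074). B cell markers summed to 108 and 118 CPM in the controls and 129 and 96 CPM with both guides, with Ms4a1, Cd22 and Blk at 0, and markers of CD8, NK and gamma-delta T cells to 396 and 375 against 329 and 278 CPM, with Ncr1 at 0. The part of these markers in the changes above was not tested.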

How the data were processed

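Libraries were made from TRIzol total RNA by the QuantSeq FWD 3' mRNA method, per the labels' protocols. The tools in the submitters' processing notes, with no role or order, are STAR 2.7.9a, Subread 2.0.1, deepTools and Bowtie2, and the build is mm10. The sources used here give neither the annotation nor the strand setting, so a gene and an overlapping or antisense partner cannot be told apart. The authors deposited the Smad table under the name TPM. Its deposited values, a score, were taken as CPM that the authors rounded to whole numbers, judged from its column sums and its unnamed last line. That line holds what 1 read is worth in each library and was left out. The cell-type table was deposited under the name TPM too, and its deposited values were taken as CPM: its columns sum to 1000000, and 100% of its values were whole multiples of 1 read (tolerance 0.01). The design had taken both for TPM, and its test was kept.

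Values were tested as log2(CPM + 1) with limma 3.58.1 (R 4.3.3, intensity trend), all 8 Smad libraries in 1 fit with 4 residual degrees of freedom, and Benjamini-Hochberg adjustment over all genes that passed the filter. Treg and Th0 were compared in a fit of the 9 cell-type libraries over genes at 5 CPM in at least 3 of those 6. Genes were named by fixed rule: the 15 largest rises and 15 largest falls past the threshold with a mean of at least 10 CPM, without predicted genes and receptor segments, list members past the threshold, all TGF-beta list members and Smad2, Smad3, Acsl6, Acsbg1 and Foxp3. Names from gene lists that did not pass, such as Prf1, Tcf7, Lef1, Il2ra, Ctla4, Ikzf2 and Egr1, and the cell markers were chosen after their values were seen. The genes, the 29 lists and the comparisons were chosen with earlier results of these data known. Alternatives covered the added constant, filter, scaling, trend, replicate block, left-out libraries and, chosen after seeing the data, edgeR 4.0.16. The fit was tested on simulated data. The Acsbg1 guide and ATAC libraries were not analysed here.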

Additional observations from a re-analysis of the deposited data

Results flagged for a closer look

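Cd40, Acsl6 and Smad3 had both sgSmad2 libraries on one side of both controls and both sgSmad3 libraries on the other; these differences were not tested. Cd40 was at 53 and 55 CPM with sgSmad2 and 18 and 15 with sgSmad3 against 42 and 43 in the controls, and the sgSmad2 change exceeded the sgSmad3 change by 1.66 on the log2 scale. Acsl6 was at 82 and 78 against 27 and 27 CPM, with 75 and 68 in the controls, a difference of 1.53. Smad3 was at 44 and 56 with sgSmad2 and 26 and 25 CPM with sgSmad3, with 30 and 34 in the controls, a difference of 0.935. With both guides Cd40 was at 11 and 17, Acsl6 at 31 and 43 and Smad3 at 41 and 37 CPM, so the first 2 genes were below the controls and Smad3 above them.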

How the results depend on the processing

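All 56 genes called with both guides kept their direction in each alternative that tested them. That was 20 alternatives, and 19 for Arfgef3, Cd38 and Col1a1, which the filter at 20 left out. Most of these alternatives could not have reversed it. The filter, the trend, the block, the 4 libraries alone and left-out single-guide libraries do not change the fitted difference. The groups of the called genes did not overlap, so leaving out a control or sgSmad2/3 library kept the sign too. Without the intensity trend 10 of the 56 passed. The count of 56 became 0 with the filter at 1 or without a filter, where 15416 and 19944 genes were tested, 11 without the trend, 0 in the 4 libraries alone, and 4 to 66 with a library left out. Against sgSmad2 the count of 11 became 0 with the filter at 1, without a filter or without the trend, 19 with median centring, and 0 to 7 with a library left out; against sgSmad3 the count of 2 became 0, 0 and 0 and ranged from 0 to 7. For sgSmad2 against control the 1 gene became 0 in these 3 settings and with voom weights, 2 with median centring, and 0 with any library left out. For sgSmad3 against control the 10 became 0, 0 and 0, 18 with median centring, and 0 to 14. For Treg against Th0 the 835 became 533 without the trend. Deviations of same-numbered libraries correlated at 0.28 between control and sgSmad2 and at 0.0086 to 0.070 for the other pairs of groups. The labels do not say what the numbers mark, and whether they stand for a shared batch was not tested. The replicate block gave 108, 28, 8, 2 and 27 genes for the 5 guide comparisons, against 56, 11, 2, 1 and 10 without it. Under the block Acsl6 had a log2 change of -0.95 (limma adjusted p = 0.039), and Acsbg1 passed too (-0.98, adjusted p = 0.045). Acsl6 also passed with quantile scaling (-0.999), median centring (-0.99) and edgeR (-0.98), and lay between -1.18 and -0.72 with a library left out. It did not pass with the filter at 1, without a filter, without the trend, with voom weights or in the 4 libraries alone. Foxp3 ranged from -0.73 to 0.12 with a library left out and changed sign without control library 2. Beyond the number of genes or libraries in a setting the cause was not tested. A level under 3 reads, about 2 CPM, was not measurable here.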
